A study of Mus musculus with 9 samples.

Results

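Transcripts of 8 genes of the chemokine receptor family, Ccr1, Ccr2, Ccr3, Ccr7, Cxcr2, Cxcr4, Cx3cr1 and the atypical receptor gene Ccrl2, were followed in mouse basophils. The 8 genes were taken by name from the 35673 genes of the count table, and all 8 passed the filter on low counts and were tested. Basophils had been grown from C57BL/6J WT bone marrow for 7 days at 0.3 ng/mL IL-3 and enriched by magnetic selection for CD49b. Portions of 10000 cells were exposed for 4 hours in 3 groups of 3 libraries each. The difamilast group was given IL-3 and IL-33, each at 10 ng/mL, together with 3 µM difamilast, an inhibitor of phosphodiesterase 4. The stimulated group received both cytokines with the vehicle DMSO, and the resting group received PBS with DMSO. All groups were wild type and had grown in IL-3, so the resting cells were not free of earlier IL-3. Difamilast without cytokines was not analysed here, so the inhibitor is described in stimulated cells.

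Chemokine receptors are G protein-coupled receptors that steer leukocytes along gradients of chemokines, mostly through Gi proteins, which lower cAMP. Receptors for inflammatory chemokines, such as CCR1, CCR2 and CXCR2, guide cells into inflamed tissue, whereas CXCR4 holds cells in bone marrow and CCR7 leads them to lymph nodes. CCRL2 is an atypical member that does not signal through G proteins, and it binds the attractant chemerin and presents it to the signalling receptor CMKLR1. Phosphodiesterase 4 degrades cAMP in immune cells, and IL-33 activates basophils through its receptor ST2 and NF-kB.

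Raw totals ran from 6261446 to 38098584 counts per library. Within groups, every pair of libraries differed beyond counting noise (4.54 to 48.7 chi-square per degree of freedom). Whether replicates were separate cultures or animals is not in the labels. The p-values therefore speak of the spread among these samples alone, and that spread may be technical. Resting replicate 1 and difamilast replicate 3 stood apart: 735 genes were called between difamilast and stimulated cells with all libraries, 1693 without resting replicate 1 and 1138 without difamilast replicate 3. Levels are TMM-normalised CPM, which are counts scaled to the library total multiplied by the library's TMM factor. These factors were 0.85 to 0.92 in difamilast, 0.87 to 0.89 in stimulated and 1.23 to 1.32 in resting libraries. All 12 basophil markers were detected in every library. They summed to 15170 to 16500 CPM in difamilast, 13970 to 14690 CPM in stimulated and 9271 to 10110 CPM in resting libraries. A higher factor gives a lower CPM, so how far the resting sums lie below the others depends on this scaling. Among these markers, the gene of highest CPM in difamilast libraries was Hdc, which encodes the histamine-forming enzyme, at 4518 ± 412 CPM (SD, n = 3). Monocyte and macrophage markers were also plentiful, led by the lysozyme gene Lyz2.

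**Figure D1:**
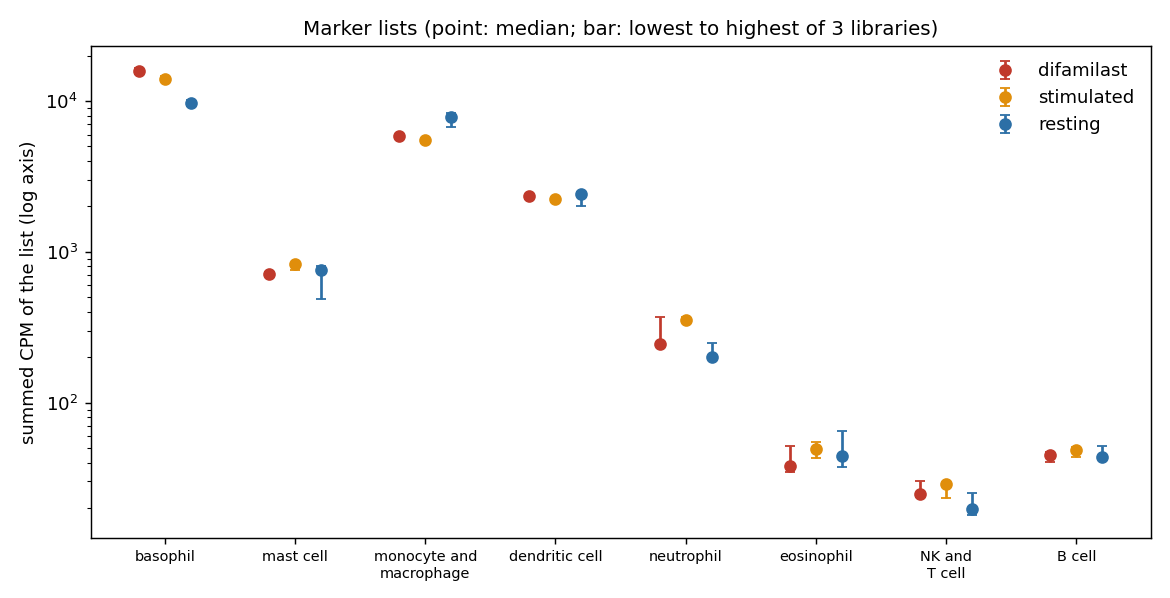
Summed TMM-normalised CPM of each marker list (log axis) in difamilast, stimulated and resting libraries; points are medians and bars run from the lowest to the highest of 3 libraries. Basophil markers lead in every group, and monocyte and macrophage markers come next.

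Stimulation changed most of these receptor transcripts, in both directions. Stimulated cells held less Ccr2, Ccr3, Cx3cr1 and Ccr7 mRNA than resting cells, by 4.83-fold, 4.29-fold, 3.37-fold and 2.15-fold. Ccr1 was 1.66-fold higher in stimulated cells, and Cxcr2 and Ccrl2 were 1.33-fold and 1.29-fold higher. Cxcr4 was not called. By edgeR's quasi-likelihood test at an adjusted p under 0.05, 3 members were thus higher and 4 lower, where 31.7% of the 21341 tested genes were called, 15.3% higher and 16.4% lower. The median log2 fold change was -0.63 over the 8 genes and 0.06 over all tested genes. Resting libraries had higher TMM factors than stimulated ones, and a higher factor gives a lower CPM. The small rises of Cxcr2 and Ccrl2 therefore depend on this scaling, and scaling to raw totals alone was not tested.

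Difamilast changed fewer of them, and among the 8 its largest change was in Ccrl2, which was 3.22-fold higher in difamilast cells than in stimulated cells. Ccr7 was 1.93-fold higher and Cxcr2 1.63-fold lower. The other 5 members did not pass the test, although all 3 difamilast libraries lay above all 3 stimulated libraries for Cxcr4. The counts of 2 higher and 1 lower stand beside 3.44% of all tested genes called in this comparison, 2.21% higher and 1.24% lower. The median log2 fold change was 0.13 over the 8 genes and -0.0029 over all tested genes. Against resting cells, difamilast cells had 2 members higher and 3 lower, with 32.8% of all tested genes called, 16.4% in each direction. The comparisons share libraries, so their results are not independent of each other.

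**Figure D2:**
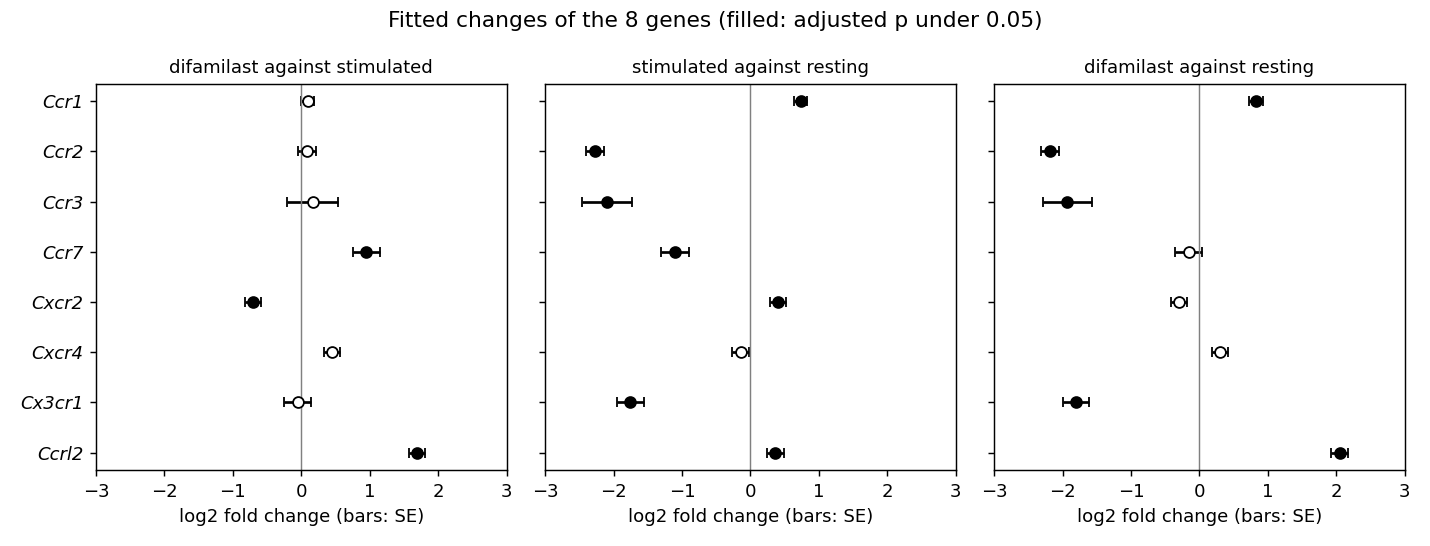
Fitted log2 fold change of each of the 8 genes (x axis; bars are standard errors) for difamilast against stimulated, stimulated against resting and difamilast against resting cells, with filled points for an adjusted p under 0.05. Ccrl2 has the largest shift between difamilast and stimulated cells, at 1.69, and Ccr2 the largest between stimulated and resting cells, at -2.27.

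**Figure D3:**
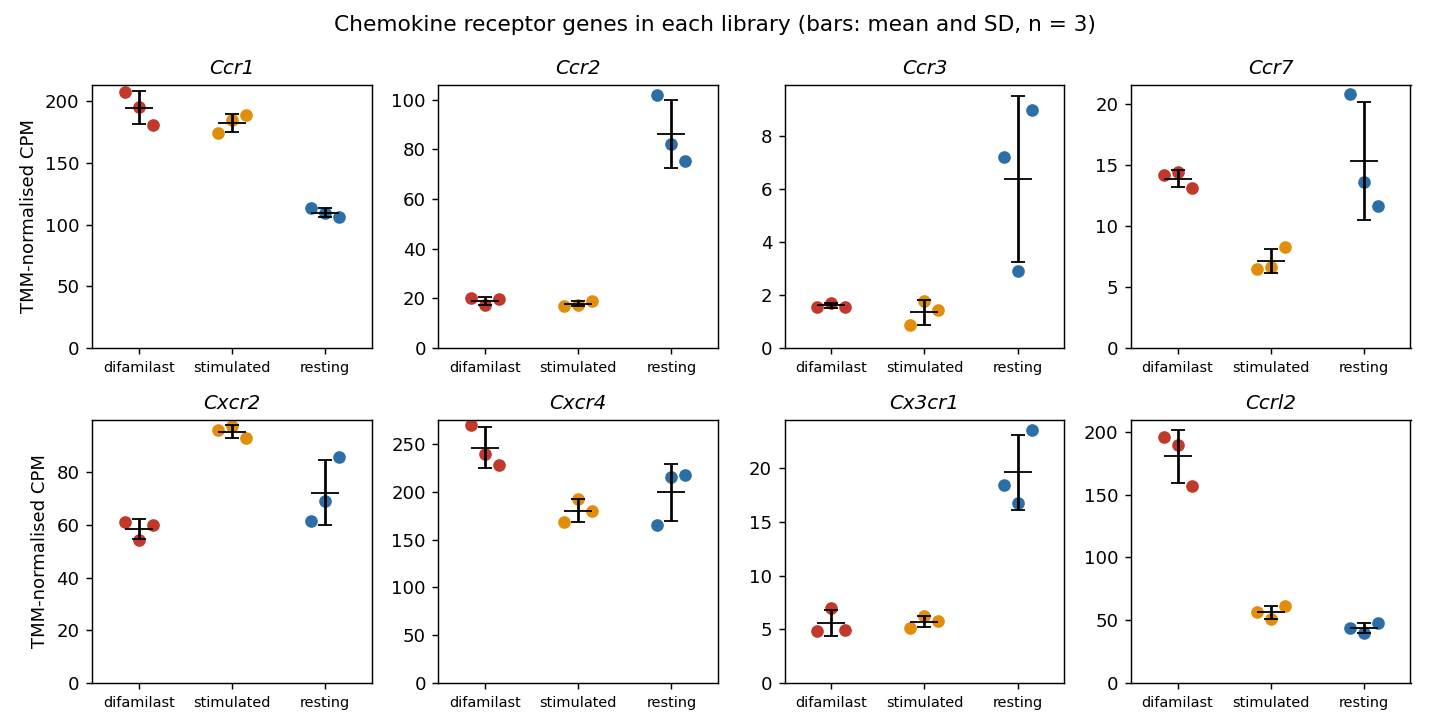
TMM-normalised CPM of each of the 8 genes in every library, with the difamilast group on the left, then stimulated and resting; lines and bars are the mean and SD of 3 libraries. Ccrl2 stands between 157 and 196 CPM in difamilast libraries and at or under 61.2 CPM in all others.

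Several of the 8 genes lie together on mouse chromosome 9 (GRCm38, GENCODE vM21). Ccr1 (123962124 to 123968692, minus strand), Ccr3 (124021972 to 124031689, plus strand) and Ccr2 (124101950 to 124113557, plus strand) lie in a cluster of receptor genes. Cx3cr1 (119901616 to 120069879, minus strand) and Ccrl2 (111054486 to 111057519, minus strand) are on the same chromosome, and Ccrl2 is 12904605 bases from Ccr1. Ccr7 is on chromosome 11 (99144196 to 99155077, minus strand). Cxcr2 (74153989 to 74161246, plus strand) and Cxcr4 (128588199 to 128592293, minus strand) are on chromosome 1. Only Cx3cr1 overlaps an exon of another annotated gene, by 78 bases with Gm33858 on the opposite strand. Stretches of 50 bases shared with other genes made up 6.68% of Cxcr2, 1.91% of Ccr2 and 1.06% of Cx3cr1, and there were none in the other 5, so counts of these 3 may hold a few reads of other genes.

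The upstream sequence of the 3 members that were higher with stimulation is shown because IL-33 is known to act through NF-kB. Each run is the 250 bases before the RefSeq transcript start (GRCm38.p6), 5′ to 3′ on the gene's strand, and capitals mark matches on either strand to an NF-kB pattern of GGG, any 5 bases and CC.
Ccrl2, chr9:111057519-111057768, minus strand: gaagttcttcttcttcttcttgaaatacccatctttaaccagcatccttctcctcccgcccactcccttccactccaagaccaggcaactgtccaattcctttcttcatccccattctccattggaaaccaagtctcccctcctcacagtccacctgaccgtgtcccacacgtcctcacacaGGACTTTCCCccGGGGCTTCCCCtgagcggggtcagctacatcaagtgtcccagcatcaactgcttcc
Cxcr2, chr1:74153744-74153993, plus strand: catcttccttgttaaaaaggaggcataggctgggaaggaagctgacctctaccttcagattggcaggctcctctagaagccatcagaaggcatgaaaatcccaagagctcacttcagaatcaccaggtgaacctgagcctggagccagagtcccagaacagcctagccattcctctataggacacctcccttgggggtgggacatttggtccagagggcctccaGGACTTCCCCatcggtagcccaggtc
Ccr1, chr9:123968693-123968942, minus strand: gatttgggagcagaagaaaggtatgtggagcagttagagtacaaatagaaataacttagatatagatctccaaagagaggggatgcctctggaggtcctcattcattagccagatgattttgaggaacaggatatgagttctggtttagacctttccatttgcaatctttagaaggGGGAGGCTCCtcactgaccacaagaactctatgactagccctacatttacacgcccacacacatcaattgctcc
The windows of Ccrl2, Cxcr2 and Ccr1 cover 1, 5 and 0 bases of annotated exons. In Ccrl2 there are 3 matches, GGACTTTCCC at 68 bases before the start and the overlapping GGGGCTTCCC and GGGCTTCCCC at 56 and 55 bases. Cxcr2 holds GGACTTCCCC at 26 bases and Ccr1 holds GGGAGGCTCC at 74 bases before its start.

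A window was found for 7 of the 8 genes. The NF-kB pattern was in the Ccr3 window too, as GGAAATTCCC at 179 bases, together with the AP-1 pattern TGANTCA as TGAGTCA at 144 bases. A Cx3cr1 window, which lies within annotated exons, held the NF-kB pattern as GGTTTGCCCC at 174 bases. The windows of Ccr2 and Cxcr4 held none of the 4 patterns searched. Of the 250 bases of the Ccr2 window, 233 lie in annotated exons, so it is mostly transcribed sequence. The other patterns were the CRE core TGACG, which is the site known for cAMP-responsive CREB, and the STAT pattern of TTC, any 3 bases and GAA. Ccrl2 has 2 further annotated starts, and their windows hold no match to the NF-kB pattern. They each hold TGACG, at 218 and 244 bases, in the same stretch of sequence. These 2 windows cover 139 and 140 bases of annotated exons. Of 32851 windows of the same length across the genome, 45.8% held the NF-kB pattern, so that pattern is common. TGACG was in 17.8% of them, the STAT pattern in 7.02% and the AP-1 pattern in 6.75%. These shares count windows with any match, not the number of matches in a window. A match is a description of letters.

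Ccr2, whose receptor binds Ccl2, Ccl7 and Ccl12 and moves monocytes out of bone marrow, had 20.2, 17.2 and 19.6 CPM in difamilast libraries. It had 17.0, 17.5 and 19.0 CPM in stimulated libraries and 102, 82.1 and 75.2 CPM in resting libraries. All resting libraries were far above the other 6, which overlapped each other. In the fit, stimulated against resting cells differed by -2.27 ± 0.14 on the log2 scale (SE; adjusted p = 6.17e-09), and difamilast against stimulated cells by 0.09 ± 0.13 (adjusted p = 0.834). Ccr2 thus stayed low in difamilast cells, at a log2 fold change of -2.18 against resting cells (adjusted p = 8.29e-09). In bulk RNA, fewer cells of a type and less RNA per cell cannot be told apart. Of the summed CPM of the 8 genes, Ccr2 was 2.4% to 2.95% in difamilast, 3.14% to 3.41% in stimulated and 13.1% to 19.1% in resting libraries.

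Cx3cr1 encodes the fractalkine receptor of monocytes and tissue macrophages. It had 4.80, 6.94 and 4.88 CPM in difamilast, 5.14, 6.20 and 5.77 CPM in stimulated and 18.5, 16.8 and 23.6 CPM in resting libraries. Resting libraries again did not overlap the others, and the difamilast and stimulated ranges overlapped. Fitted log2 fold changes were -1.75 ± 0.20 (SE; adjusted p = 5.46e-06) for stimulated against resting cells and -0.05 ± 0.20 (adjusted p = 0.941) for difamilast against stimulated cells.

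Of 18 marker genes of monocytes and macrophages, 1 rose and 7 fell with stimulation, and 10 were not called. Among all tested genes, 15.3% were called higher and 16.4% lower in that comparison. The 18 summed to 5772 to 5959 CPM in difamilast, 5232 to 5602 CPM in stimulated and 6753 to 8286 CPM in resting libraries. With difamilast 1 rose, Cd14, at 1.73 on the log2 scale (adjusted p = 1.61e-06), and none fell, where 3.44% of all tested genes were called. Cd14 was among the 7 that fell with stimulation, at -0.61 (adjusted p = 0.00146). The one higher with stimulation was Fcgr1, an IgG receptor gene, at 0.62 on the log2 scale (adjusted p = 0.00284). Lyz2, which had the highest CPM of them and fell, was at 2621 ± 87.9 CPM in difamilast, 2736 ± 36.3 CPM in stimulated and 3957 ± 483 CPM in resting libraries (SD, n = 3). No marker of this list was at 0 in any library, and the part of these cells in the lower Ccr2 and Cx3cr1 was not tested.

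Ccr3 encodes the receptor for eotaxins such as Ccl11 and Ccl24, which is known from eosinophils and from human basophils. It had the lowest level of the 8 per kilobase of transcript, and was at 1.55, 1.72 and 1.56 CPM in difamilast, 0.856, 1.78 and 1.43 CPM in stimulated and 7.20, 2.92 and 8.99 CPM in resting libraries. These rest on 33 to 47 counts in difamilast, 9 to 60 in stimulated and 53 to 103 in resting libraries, so its values are the least precise here. Resting replicate 2 was the lowest of its group but still above all stimulated and difamilast libraries. The log2 fold change was -2.10 ± 0.36 (SE; adjusted p = 0.000404) for stimulated against resting cells and 0.17 ± 0.38 (adjusted p = 0.899) for difamilast against stimulated cells. Eosinophil markers, 8 genes led by Ear2, summed to 34.7 to 51.5 CPM in difamilast, 42.8 to 55.2 CPM in stimulated and 37.6 to 64.8 CPM in resting libraries. Of the 5 tested, 1 rose and 1 fell with stimulation, where 31.7% of all tested genes were called. The granule gene Prg2 rose, by 1.57 ± 0.40 on the log2 scale (SE; adjusted p = 0.00761), with 15.1 ± 1.43 CPM in difamilast, 13.9 ± 3.90 CPM in stimulated and 4.55 ± 3.49 CPM in resting libraries (SD, n = 3), and Siglecf fell by 1.26 (adjusted p = 0.000827). The granule genes Epx and Prg3 were at 0 in 1 and 2 libraries, and neither exceeded 0.585 CPM. The part of such cells in the Ccr3 values was not tested.

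Ccr1, a receptor for Ccl3, Ccl5 and other inflammatory chemokines, was the member of the chromosome 9 cluster that moved the other way. It had 208, 196 and 181 CPM in difamilast, 174, 185 and 189 CPM in stimulated and 114, 109 and 106 CPM in resting libraries. The resting libraries were all lower, and the difamilast and stimulated libraries overlapped. The log2 fold change was 0.73 ± 0.10 (SE; adjusted p = 3.02e-05) for stimulated against resting cells and 0.09 ± 0.10 (adjusted p = 0.736) for difamilast against stimulated cells. Against resting cells difamilast cells had 1.77-fold more Ccr1 (adjusted p = 9.26e-06).

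Within the cluster, therefore, Ccr1 was higher with stimulation and Ccr3 and Ccr2 were lower. Of 10 tested neighbours of the cluster and of Ccrl2, 2 rose with stimulation, among them Fyco1, an adaptor of vesicle transport, at 0.68 ± 0.13 on the log2 scale (SE; adjusted p = 0.000713). The cilium trafficking gene Lztfl1 fell by 0.42 on the log2 scale (adjusted p = 0.0405), a call that held in 5 of 17 alternative settings. None of the 10 was called between difamilast and stimulated cells, where 3.44% of all tested genes were called. For stimulated against resting cells that share was 31.7%, so both counts of neighbours are near the shares over all genes. Ltf, which lies 11719 bases from Ccrl2, averaged 7.77 ± 0.777 CPM in difamilast and 5.18 ± 2.32 CPM in stimulated libraries, and differed by 0.54 ± 0.31 on the log2 scale (SE; adjusted p = 0.463).

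Ccr7, the receptor for Ccl19 and Ccl21 that takes dendritic cells and T cells to lymph nodes, had 14.2, 14.4 and 13.1 CPM in difamilast libraries. The values were 6.47, 6.65 and 8.27 CPM in stimulated and 20.8, 13.6 and 11.7 CPM in resting libraries. The stimulated libraries were the lowest, with no overlap with either other group, and the difamilast libraries fell within the resting range. The log2 fold change was -1.11 ± 0.20 (SE; adjusted p = 0.000678) for stimulated against resting cells. It was 0.95 ± 0.20 (adjusted p = 0.013) for difamilast against stimulated cells and -0.16 ± 0.20 (adjusted p = 0.585) for difamilast against resting cells. The call with difamilast was lost without stimulated replicate 1 (adjusted p = 0.078) or 2 (0.0936), and also without difamilast replicate 1 (0.0555) or 2 (0.0685), and over all alternatives its adjusted p ran from 1.76e-05 to 0.0936. Dendritic cell markers, 15 genes led by Cd74, summed to 2249 to 2376 CPM in difamilast, 2140 to 2257 CPM in stimulated and 2004 to 2498 CPM in resting libraries. With stimulation 2 of the 14 tested rose and 4 fell, among them Fscn1, an actin-bundling gene, by 0.91 and the class II genes H2-Ab1 by 0.40 and H2-Aa by 0.38 on the log2 scale. With difamilast 0 rose and 1 fell. The shares of all tested genes called were 31.7% with stimulation and 3.44% with difamilast. Cd209a, at 0 in 5 libraries, was the only marker of the list at 0 in any, and the part of such cells in the Ccr7 values was not tested.

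Cxcr2, the receptor of neutrophils for Cxcl1, Cxcl2 and related chemokines, had 61.2, 54.2 and 60.0 CPM in difamilast libraries. It had 96.0, 97.4 and 92.9 CPM in stimulated and 61.6, 69.2 and 85.9 CPM in resting libraries. The stimulated libraries were all above the rest, and the difamilast libraries were all just below the lowest resting library. Difamilast cells had a fitted change in Cxcr2 of -0.71 ± 0.12 on the log2 scale (SE; adjusted p = 0.00283) against stimulated cells and -0.30 ± 0.12 (adjusted p = 0.0731) against resting cells. The difference from resting cells passed in DESeq2 (adjusted p = 0.0479) and without resting replicate 1 (adjusted p = 0.00343).

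With stimulation the fitted log2 fold change of Cxcr2 was 0.41 ± 0.12 (SE; adjusted p = 0.019). That call was lost without resting replicate 1 (adjusted p = 0.0563) or 2 (0.0852) and without stimulated replicate 1 (0.0871) or 2 (0.0664), within a range of 0.00441 to 0.0871 over all alternatives. Neutrophil markers, 12 genes, summed to 239, 245 and 371 CPM in difamilast libraries from low to high, 351 to 370 CPM in stimulated and 199 to 249 CPM in resting libraries. The highest CPM was that of Lcn2, which encodes lipocalin, at 103 ± 27.7 CPM in difamilast and 160.5 ± 4.16 CPM in stimulated libraries, and of Mmp8, a collagenase gene, at 55.2 ± 2.02 CPM in resting libraries (SD, n = 3). Of the 12, 3 rose and 2 fell with stimulation, where 31.7% of all tested genes were called. None was called with difamilast, where 3.44% of all tested genes were. No marker of the list was at 0 in any library. Their part in the Cxcr2 values was not tested.

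Cxcr4, the receptor for Cxcl12, had the highest level of the 8 genes per kilobase of transcript in every group. It had 271, 240.0 and 229 CPM in difamilast, 168, 193 and 181 CPM in stimulated and 165, 216 and 217 CPM in resting libraries. The difamilast libraries were above all others, and resting and stimulated libraries overlapped. The log2 fold change was 0.45 ± 0.12 (SE; adjusted p = 0.0566) for difamilast against stimulated cells, just short of the threshold. It passed in 9 of 17 alternatives, among them DESeq2 (adjusted p = 0.0104) and the fits without resting replicate 1 (0.00115), resting replicate 2 (0.0499) or difamilast replicate 3 (0.0394), within a range of 0.00115 to 0.264. For stimulated against resting cells it was -0.14 ± 0.12 (adjusted p = 0.399), and without resting replicate 1, the lowest resting library, it was -0.29 (adjusted p = 0.016; range over all alternatives 0.016 to 0.572).

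Ccrl2 had 196, 189 and 157 CPM in difamilast libraries, against 56.4, 50.8 and 61.2 CPM in stimulated and 43.9, 39.9 and 47.4 CPM in resting libraries. The difamilast libraries stood well clear of both other groups, and the stimulated libraries lay just above the resting ones. Fitted log2 fold changes of Ccrl2 were 1.69 ± 0.12 (SE; adjusted p = 1.54e-06) for difamilast against stimulated cells and 2.05 ± 0.12 (adjusted p = 6.08e-09) for difamilast against resting cells. In difamilast cells Ccrl2 was between 23.6% and 26.3% of the summed CPM of the 8 genes, against 9.10% to 11% in stimulated and 7.26% to 8.24% in resting cells. That sum was 666 to 776 CPM in difamilast, 525 to 558 CPM in stimulated and 533 to 576 CPM in resting libraries.

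With the cytokines alone Ccrl2 was slightly higher than at rest, by 0.36 ± 0.12 on the log2 scale (SE; adjusted p = 0.032). It did not pass in DESeq2 (adjusted p = 0.0752), with RLE scaling (0.073) or with no filter (0.0614), nor without resting replicate 2 (0.165), stimulated replicate 1 (0.124) or stimulated replicate 3 (0.136), and over all alternatives its adjusted p ran from 0.00839 to 0.165. The chemerin gene Rarres2 and the CMKLR1 gene Cmklr1 are named with their values already seen. Rarres2 was nearly silent, with 11 to 22 counts in difamilast, 2 to 8 in stimulated and 0 to 10 in resting libraries. Cmklr1 averaged 10.9 ± 0.21 CPM in difamilast, 14.1 ± 0.442 CPM in stimulated and 12.2 ± 1.10 CPM in resting libraries (SD, n = 3), and it was called in none of the comparisons.

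Per kilobase of the longest annotated transcript, Cxcr4 led in every group, at 136.5 ± 12 CPM per kb in difamilast, 100.1 ± 6.85 in stimulated and 111 ± 16.4 in resting cells (SD, n = 3), above 97.9%, 96.9% and 98% of the 20649 tested genes with a length. In resting cells the order was Cxcr4, Ccr1, Cxcr2, Ccrl2, Ccr2, Ccr7, Cx3cr1 and Ccr3, and of these neighbours only Ccrl2 and Ccr2 overlapped. In stimulated cells Ccr2 moved down to lie beside Ccr7, at 3.12 ± 0.183 and 3.60 ± 0.502 CPM per kb, and only that pair overlapped. In difamilast cells Ccrl2 was second, at 73.5 ± 8.55 CPM per kb and above 96% of genes, overlapping Ccr1 at 68.7 ± 4.76 CPM per kb. Ccr3 was last in every group, above 19% of genes in difamilast, 16.9% in stimulated and 43.5% in resting cells.

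**Figure D4:**
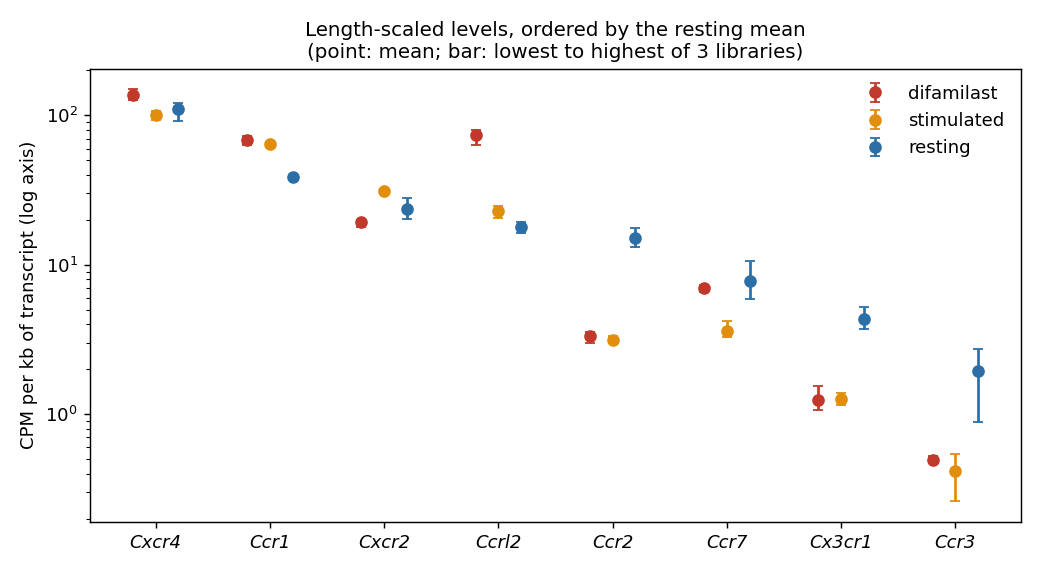
Level of each of the 8 genes in CPM per kilobase of transcript (log axis) in difamilast, stimulated and resting cells, ordered by the resting mean; points are means and bars run from the lowest to the highest of 3 libraries. Ccrl2 in difamilast cells, at 73.5 CPM per kb, lies beside Ccr1, and Ccr2 in stimulated cells, at 3.12, lies beside Ccr7.

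Across the 9 libraries, the genes whose pattern was most like each member were ranked by Pearson's r of log2(CPM + 1) among 7810 genes of at least 10 CPM on average. The libraries fall into 3 groups, so r mostly reflects the group means. Near to Ccrl2 was Zc3hc1 (r = 0.989), which encodes a regulator of mitotic entry. Zc3hc1 averaged 70.6 ± 13.4 CPM in difamilast, 29.1 ± 0.869 CPM in stimulated and 22.6 ± 1.76 CPM in resting libraries (SD, n = 3), and difamilast against stimulated cells differed by 1.28 ± 0.14 on the log2 scale (SE; adjusted p = 5.47e-05). Nearest to Cxcr2 were the cytokine gene Tnf (r = 0.981) and P2ry14 (r = 0.949), a receptor for UDP-sugars. Tnf averaged 20.8 ± 1.82 CPM in difamilast, 58.9 ± 4.63 CPM in stimulated and 37.0 ± 18.6 CPM in resting libraries (SD, n = 3).

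Nearest to Ccr7 were Ube2o (r = 0.995), a ubiquitin-conjugating enzyme gene, and Nedd9 (r = 0.980), a scaffold of adhesion signalling with 173 ± 11.2 CPM in difamilast, 113 ± 5.28 CPM in stimulated and 169.9 ± 25.3 CPM in resting libraries (SD, n = 3). Nearest to Ccr1 were Fbxo28 (r = 0.998) and the AP-1 subunit gene Junb (r = 0.996), which rose by 1.65 ± 0.11 on the log2 scale (SE; adjusted p = 2.47e-08) with stimulation. Ccr2 was most like the zinc finger gene Zfp516 (r = 0.998) and Heatr5a (r = 0.996), and Cx3cr1 most like Zfp362 (r = 0.989) and the Golgi protein gene Golim4 (r = 0.988). Ccr3 was most like the histone gene Hist1h4n (r = 0.989) and Atf7ip (r = 0.982), and Cxcr4 most like Dhrs1 (r = 0.944) and the intramembrane protease gene Sppl3 (r = 0.942). By Spearman's rho, Fbxo28 kept a place among the nearest 2, at 1 with Ccr1, and the other genes did not.

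Among 18 other chemokine receptor genes, 12 were tested, of which 3 rose and 1 fell with stimulation, with a median log2 fold change of 0.22. That is near the share of all tested genes called in this comparison, 31.7%. Ccr4, a receptor of type 2 helper T cells, averaged 9.99 ± 1.09 CPM in difamilast, 11.9 ± 0.699 CPM in stimulated and 1.54 ± 0.355 CPM in resting libraries (SD, n = 3). Its log2 fold change with stimulation was 2.97 ± 0.21 (SE; adjusted p = 4.18e-08). Ccr8 rose by 2.30 on the log2 scale (adjusted p = 0.0142), with 6 to 32 counts in stimulated and 1 to 3 counts in resting libraries, and Cxcr5, the B cell follicle receptor, fell by 0.99 on the log2 scale (adjusted p = 0.0187). The Ccr8 call was lost in limma-voom and without resting replicate 1 or stimulated replicate 2, with an adjusted p of 0.00381 to 0.0597 over its alternatives. None of the 12 was called between difamilast and stimulated cells by edgeR, and their median log2 fold change was 0.22. With 3.44% of all tested genes called there, few or no calls among 12 genes would be usual.

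Of 22 genes that encode ligands of the members 17 were tested, of which 11 rose and none fell with stimulation, with a median log2 fold change of 1.88. In that comparison 15.3% of all tested genes rose and 16.4% fell. The smallest p-values belonged to the Cxcr2 ligands Cxcl2 and Cxcl3, to Ccl7, a ligand of Ccr2, and to Ccl3, a ligand of Ccr1. Cxcl2 averaged 5804 ± 447 CPM in difamilast, 4931 ± 456 CPM in stimulated and 344 ± 45.4 CPM in resting libraries (SD, n = 3). The receptors of these ligands did not move alike: Cxcr2 and Ccr1 were higher in stimulated cells and Ccr2 was lower. Cxcl12, the ligand of Cxcr4, was too low to be tested, with 4 to 8 counts in difamilast, 4 to 16 in stimulated and 0 to 6 in resting libraries, and is named with its values already seen.

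With difamilast, 0 of the 17 ligands rose and 3 fell, with a median log2 fold change of -0.15. Over all tested genes 2.21% rose and 1.24% fell. Ccl7 averaged 58.6 ± 5.80 CPM in difamilast and 154 ± 4.06 CPM in stimulated libraries (SD, n = 3), which was -1.40 ± 0.16 on the log2 scale (SE; adjusted p = 8.82e-05). Ccl2, the main ligand of Ccr2, averaged 43.4 ± 3.34 CPM in difamilast and 118 ± 8.92 CPM in stimulated libraries and fell by 1.45 on the log2 scale (adjusted p = 0.000449). Ccl5 fell by 1.20 (adjusted p = 0.00298), but not without resting replicate 1 (adjusted p = 0.0721; range over all alternatives 5.5e-17 to 0.0721). Among genes of at least 10 CPM on average, the median log2 fold change with difamilast was -0.31 for transcripts under 750 bases, -0.39 for 750 to 1000 bases, -0.10 for 1000 to 2000 bases, 0.00 for 2000 to 3000 bases and 0.04 over 3000 bases. Ccl2, Ccl7 and Ccl5 have longest transcripts of 1096, 801 and 668 bases, against 1805 to 5728 bases for the 8 receptor genes. With each library's length trend removed, Ccl2, Ccl7 and Ccl5 were still called.

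**Figure D5:**
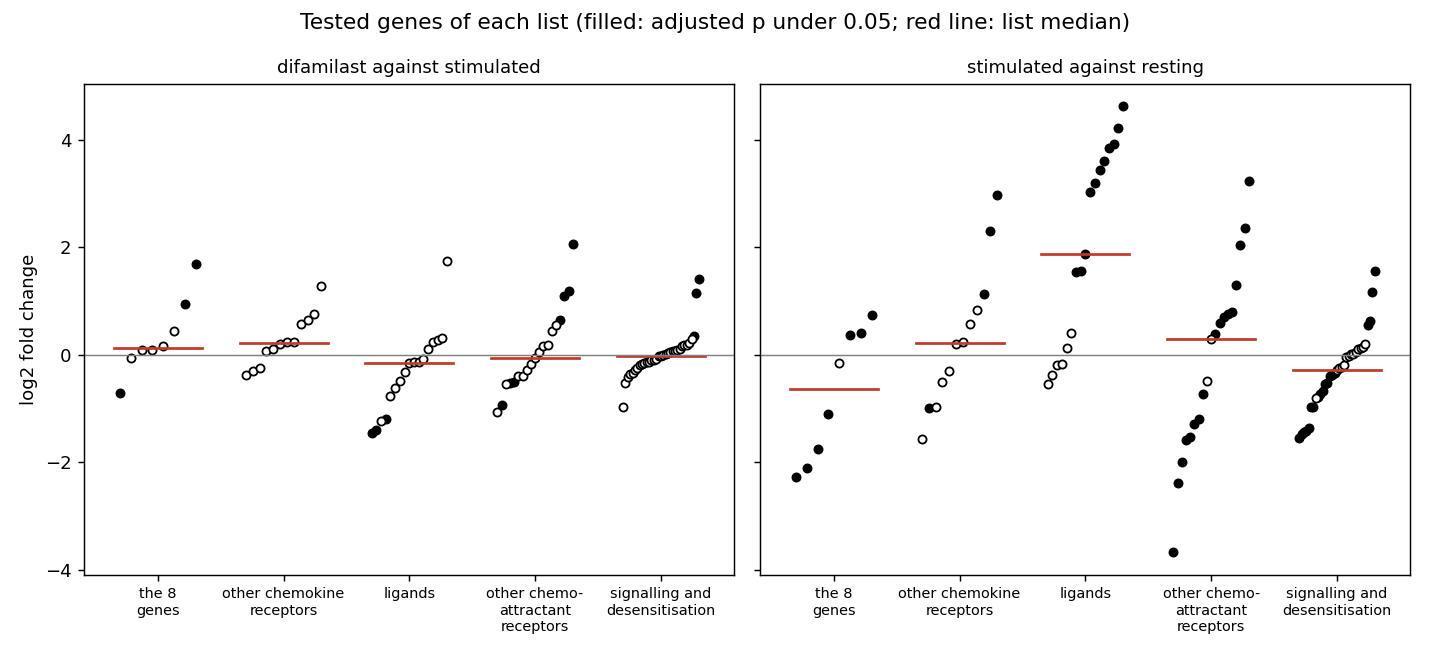
Log2 fold change of every tested gene of the 8 members, other chemokine receptors, ligands of the members, other chemoattractant receptors, and receptor signalling and desensitisation genes, for difamilast against stimulated cells (left) and stimulated against resting cells (right); filled points have an adjusted p under 0.05 and red lines are list medians. Ligands lie mostly above 0 with stimulation, at a median of 1.88, and near 0 with difamilast, at -0.15.

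Of 33 tested genes that carry or end the receptor signal, 4 rose and 15 fell with stimulation, with a median log2 fold change of -0.29. Beside these stand 15.3% of all tested genes called higher and 16.4% called lower. Elmo1 and Rac2, which link receptors to the actin skeleton, rose by 1.57 ± 0.09 and 1.17 ± 0.11 on the log2 scale (SE; adjusted p = 4.8e-09 and 5.35e-07). Arrb2, which encodes an arrestin that switches receptors off, and Plcb2, which encodes a phospholipase, fell by 1.43 and 1.54 on the log2 scale (adjusted p = 2.21e-08 and 1.88e-06). With difamilast 3 of the 33 rose and none fell, where 2.21% of all tested genes rose and 1.24% fell. Rgs1, which encodes an inhibitor of Gi signalling, averaged 640 ± 74.1 CPM in difamilast, 239.7 ± 7.09 CPM in stimulated and 395 ± 52.1 CPM in resting libraries (SD, n = 3). Rgs2, another regulator of G proteins, rose by 1.15 ± 0.16 (SE; adjusted p = 0.00049), and Elmo1 rose by 0.34 ± 0.09 (adjusted p = 0.0481), a call that held in 7 of 17 alternatives.

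Receptors for other attractants moved in both directions, with 9 of 19 tested genes higher and 8 lower with stimulation and a median log2 fold change of 0.29. Over all tested genes the shares were 15.3% higher and 16.4% lower with stimulation, and 2.21% higher and 1.24% lower with difamilast. P2ry10, a receptor for lysophospholipids, averaged 679 ± 60.9 CPM in difamilast, 162 ± 7.11 CPM in stimulated and 647 ± 43.7 CPM in resting libraries (SD, n = 3). Its log2 fold change was -2.00 ± 0.11 (SE; adjusted p = 1.44e-09) with stimulation and 2.07 ± 0.11 (adjusted p = 6.54e-08) for difamilast against stimulated cells. Like Ccr7, it was lower in stimulated cells than in either other group. S1pr1, which guides leukocytes out of tissues into blood and lymph, was lower with stimulation by 3.67 and higher with difamilast by 1.19 ± 0.14 (SE; adjusted p = 0.000122). Gpr183, an oxysterol receptor, fell by 1.52 with stimulation, and the leukotriene receptor gene Cysltr2 rose by 3.23 ± 0.16 (SE; adjusted p = 1e-09). With difamilast 4 of the 19 rose and 3 fell, among them Gpr35 at 1.10 ± 0.15 (adjusted p = 0.000513) and C3ar1, the receptor for complement C3a, at -0.92 ± 0.09 (adjusted p = 2.73e-05). C3ar1 averaged 246 ± 13.3 CPM in difamilast, 468 ± 14.3 CPM in stimulated and 276 ± 13.4 CPM in resting libraries (SD, n = 3), the same order of groups as Cxcr2 between difamilast and stimulated cells.

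Mast cell markers, 7 genes led by Tpsb2, summed to 706 to 730 CPM in difamilast, 762 to 829 CPM in stimulated and 486 to 801 CPM in resting libraries, with Mrgprb2, a receptor of connective tissue mast cells, at 0 in 7 libraries. NK and T cell markers, 11 genes led by Cd3d, summed to 23.7 to 30.1 CPM in difamilast, 23.2 to 29.9 CPM in stimulated and 17.9 to 25.0 CPM in resting libraries. B cell markers, 6 genes, summed to 40.6 to 46.9 CPM in difamilast, 43.9 to 50.8 CPM in stimulated and 42.5 to 51.2 CPM in resting libraries.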

How the data were processed

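Poly(A) RNA of 9 basophil samples was amplified by the TAS-Seq workflow before fragmentation, per the labels' protocols, so counts may include amplification copies and depend on transcript length. The deposited values are raw read counts per gene symbol, in 1 table; cutadapt 4.1, Bowtie2 2.4.5 and GRCm38 are named, without roles, per the submitters' processing notes, and how reads were assigned to genes, with or without strand, is not given in the sources used here. Groups came from the sample titles. Counts were tested with edgeR 4.0.16 (R 4.3.3; TMM scaling, filterByExpr with a minimum count of 10, robust quasi-likelihood) in 1 fit of all 9 libraries, with Benjamini-Hochberg adjustment over 21341 tested genes and a threshold of 0.05; the steps were tested on simulated data. Alternatives were limma-voom (limma 3.58.1), DESeq2 1.42.0, RLE scaling, omission of the filter, a fit of just the 2 groups in question, a block for the replicate number, removal of each library's trend with transcript length, thinning to the shallowest total, and each library left out. Positions and lengths came from GENCODE vM21; promoter windows, from RefSeq, were matched by symbol. Protein sequences were not used here.

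The 8 members and all gene lists were chosen with earlier results of these data known. Counts of called genes in each list are to be read beside the shares of all tested genes called. Those shares were 31.7% with stimulation and 3.44% with difamilast. Named genes are the members; the 2 genes most like each by Pearson's r; up to 4 called genes of smallest p per list and comparison; and the gene of highest CPM in each marker list; some of these are not reported here. Levels are TMM-normalised CPM, as mean ± SD over 3 libraries, and SE is the fitted log2 fold change divided by the root of its F statistic.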

Additional observations from a re-analysis of the deposited data

How the results depend on the processing

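Of the fold changes of the 8 genes in 3 comparisons under 17 alternatives, 380 stayed on their side of the threshold, 14 lost their call and 14 gained one. No called change was reversed; Cx3cr1, not called between difamilast and stimulated cells, changed sign there in 3, and Ccr7, not called between difamilast and resting cells, in 2. The changes of call were in Ccrl2, Cxcr2, Cxcr4 and Ccr7, and most stand beside those genes above. Cxcr4 also passed against stimulated cells with RLE scaling (adjusted p = 0.0444), no filter (0.00756), only the 2 groups (0.00389), limma-voom (0.0337) and the length trend removed (0.00769), and against resting cells in limma-voom (adjusted p = 0.0467) and with the length trend removed (adjusted p = 0.0132). The calls of Ccr1, Ccr2, Ccr3 and Cx3cr1, and those of Ccrl2 and Cxcr2 between difamilast and stimulated cells, held in all 17. With a library left out, members called higher numbered 1 to 3 with stimulation and 1 to 3 with difamilast. Genes called between difamilast and stimulated cells numbered 735 in all, 1117 in DESeq2, 1351 with no filter on low counts, 1673 in a fit of only those 2 groups, and 347 to 1693 with a library left out. The share of those calls that were higher was 64.1%, against 51.0% with no filter, 49.7% in the fit of 2 groups, 51.4% without resting replicate 1, 74.3% without difamilast replicate 2 and 47.5% without difamilast replicate 3; the cause was not tested. With the replicate number as a block, 6489 genes were called with stimulation and 700 with difamilast (6770 and 735 without the block). No call of the 8 genes changed with the block. Same-numbered libraries of different groups correlated between -0.40 and 0.42 over 9 pairs. Differently numbered ones correlated between -0.54 and 0.60 over 18 pairs. Values were centred within each group of 3, which ties these correlations together, so they cannot decide whether the numbers pair the samples. With the median transcript length in place of the longest, Ccr2 stood above Ccrl2 in resting cells (26.5 against 23.5 CPM per kb) and above Ccr7 in stimulated cells (5.48 against 3.60 CPM per kb). By Spearman's rho, 1 of the 16 genes nearest by likeness kept a place, ties included. All 17 alternatives used TMM or similar scaling factors, so scaling to raw totals alone was not tested. Low counts limit Ccr3 most, and the resting libraries and stimulated replicate 1 are the shallowest. With 3 libraries a group, a difference that missed the threshold is not shown to be absent.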
